A study of Mus musculus with 50 samples.

Results

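The genes described here are those of excitation-contraction coupling and of the ion channels and calcium signals around it: 45 genes chosen by name for their known roles in muscle. They were chosen with earlier results of these data known. A CpG was counted as theirs when the deposited table placed it in the promoter or gene body of a member by its Ensembl identifier. By that rule 37 of the 45 genes held 555 of the 205304 CpGs of the table, in 128 of its 51038 clusters. A cluster is a run of neighbouring CpGs, none more than 100 bp from the next, whose sequencing calls were added together. Its methylation level is the percentage of those calls that were methylated.

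When a motor neuron fires, an action potential runs along the muscle fibre and into its transverse tubules, where a voltage-sensing calcium channel pulls open the ryanodine receptor of the sarcoplasmic reticulum. Calcium leaves the store, starts contraction, and is pumped back, while buffers hold it inside the store or in the cytosol and sodium, chloride and potassium channels set how easily the fibre fires. The soleus is a slow, fatigue-resistant muscle in which calcium also drives gene programmes through calcineurin, NFAT and CaM kinase. DNA methylation in mammals sits mostly on CpG dinucleotides. Gene starts rich in CpG are typically left unmethylated and gene bodies are methylated, and Dnmt3a is an enzyme that places new methyl groups.

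Levels come from reduced representation bisulfite sequencing (RRBS), run on soleus DNA of C57BL/6 mice, 12 weeks old and of both sexes. Wild-type (WT) mice carried the floxed Dnmt3a allele (Dnmt3a flox/flox, exon 19 floxed) without Cre, and knockout (mD3AKO) mice carried the same floxed allele with Cre under the muscle creatine kinase promoter, which is active late in muscle differentiation and also in the heart. Mice were taken at rest after a stay on a stationary treadmill, or 10, 30 or 60 min after a 30 min treadmill run, and both genotypes had the same treatment. Every mouse taken at rest or at 60 min had a number from 1 to 25, and every mouse taken at 10 or 30 min a number from 26 to 50, in both genotypes. A difference between these 2 pairs of times therefore cannot be told apart from one between the 2 sets of numbers. The counts used here cover 44 mice, 1 library each: 5, 5, 5 and 6 WT and 5, 5, 7 and 6 mD3AKO mice at rest and at 10, 30 and 60 min. Genotype means are over 21 WT and 23 mD3AKO mice and follow as mean ± SD, unless another n is given. Every level is of a whole muscle, so a change inside muscle fibres cannot be told apart from a change in the mix of cells.

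The libraries held 12819404 to 41285655 calls, with a median coverage per CpG of 48 to 163. Each library was placed at 500 clusters outside the members with the strongest loss in mD3AKO, for their spread, among the other libraries. They were thus picked to separate the genotypes. There every WT library lay nearer the WT mean (positions -0.13 to 0.449 between the genotype means) and every mD3AKO library nearer the mD3AKO mean (0.602 to 1.28). Coverage of the 21 CpGs assigned to Dnmt3a did not separate the genotypes (mD3AKO over WT, 0.897 to 1.24). Whether any of these CpGs lies in the floxed stretch was not checked, so the deletion could not be judged from these counts. The median correlation of a library with the others was 0.809 to 0.883. RNA was not analysed here, so the tissue could not be checked by expressed markers. Of 26 marker genes of other cell types in muscle, 12 held 33 clusters, of which 0 passed the test between genotypes in edgeR and 4 had an unadjusted p under 0.05 (12.1%, against 9.56% of all clusters). These 4 were lower in mD3AKO: Pecam1, an endothelial marker, at 31.3% in WT and 19.4% in mD3AKO, Csf1r and Itgam, immune cell markers, at 65.7% and 49.7% and at 65.1% and 53.5%, and Myh11, a smooth muscle marker, at 62.4% and 51.7%. Other Pecam1 clusters were higher in mD3AKO (68.8% in WT and 74.2%, 71.9% and 75.4%, 80.2% and 81.3%), and another was lower (27.2% and 19.2%). Of the 6 promoter clusters of the markers 3 were lower (50%, against 59.0% of all clusters with promoter CpGs). The part of these marker clusters in the members' differences was not tested.

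The sequences that carry the differences are those of 4 clusters, in Orai1, Atp2b1 (2 clusters) and Kcnma1, shown because they had the lowest p-values of all member clusters between the genotypes. Each is read from the mm10 reference on the strand of its gene with 40 bases on either side, and capitals mark the CpGs with calls in every library.
Orai1, last exon, chr5:123029487-123029656, plus strand: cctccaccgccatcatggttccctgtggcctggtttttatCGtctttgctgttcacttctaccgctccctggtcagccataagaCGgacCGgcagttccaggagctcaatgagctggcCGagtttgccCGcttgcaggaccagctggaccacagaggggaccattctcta
Atp2b1, first intron, chr10:98967488-98967629, plus strand: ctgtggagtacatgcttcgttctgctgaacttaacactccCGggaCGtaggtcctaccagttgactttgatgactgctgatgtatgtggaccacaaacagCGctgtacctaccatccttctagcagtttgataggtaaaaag
Atp2b1, first intron, chr10:98959465-98959608, plus strand: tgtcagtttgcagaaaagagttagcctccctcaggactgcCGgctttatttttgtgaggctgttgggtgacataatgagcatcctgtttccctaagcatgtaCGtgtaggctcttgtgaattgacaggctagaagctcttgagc
Kcnma1, first intron, chr14:23835910-23835991, minus strand: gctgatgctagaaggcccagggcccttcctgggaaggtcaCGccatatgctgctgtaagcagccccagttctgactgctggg
The Orai1 window and both Atp2b1 windows each hold 1 CCGG, the site at which MspI cuts in RRBS, and the Kcnma1 window holds 0. The Orai1 window has 7 CpGs in all, of which 5 were covered.

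The first comparison asked which of these genes lost or gained methylation without Dnmt3a, over all 4 times. Of the 128 member clusters, 2 passed an adjusted p of 0.05, both lower in mD3AKO, in the last exon of Orai1 and the first intron of Atp2b1. Across the whole table, 557 of 51038 clusters passed (1.09%), 554 of them lower, so the members' share of 1.56% lay near the background. With an unadjusted p under 0.05, 18 member clusters in 15 genes differed, or 14.1% against 9.56% of all clusters. Of the 18, 15 were lower in mD3AKO (8.31% of all clusters) and 3 higher (1.26%), and the genotypes overlapped in each of the 128 clusters, as they did in all but 4 of the table (0.00784%). The likelihood ratio test called 6 member clusters (4.69%, against 2.77% of all clusters) and limma 4 (3.12%, against 1.75%), all 4 of the latter among the 6 (Orai1, both Atp2b1 clusters and the Kcnma1 cluster described below, with Cacnb1 and Camk2a in addition under the former). Each p is from edgeR's quasi-likelihood test, two-sided, on methylated and unmethylated counts, adjusted by the Benjamini-Hochberg method over all clusters, and each effect is a log2 odds ratio of methylation, mD3AKO over WT, with the SE that its F statistic implies.

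The levels themselves followed position. Over the 128 clusters the median WT level was 45.4%, against 52.2% for all clusters, and the median difference (mD3AKO minus WT) was -0.77 percentage points, against -0.46. Of the 128, 81 had a lower mean in mD3AKO (63.3%, against 62.4% of all clusters). The 30 member clusters with promoter CpGs had a median WT level of 0.807%, and the 98 with gene body CpGs alone had 51.7% (0.889% and 63.4% for all clusters of those kinds). At the promoter clusters 15 of 30 were lower in mD3AKO with a median difference of -0.03 points, and at the gene body clusters 66 of 98 with -2.28 points, shares of 50% and 67.3%. Among all clusters of those kinds 59.0% and 66.5% were lower, with median differences of -0.09 and -1.21 points. In the plot of mean level in WT against mean level in mD3AKO, the member clusters lay along the diagonal with a scatter below it at intermediate and high levels.

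**Figure D1:**
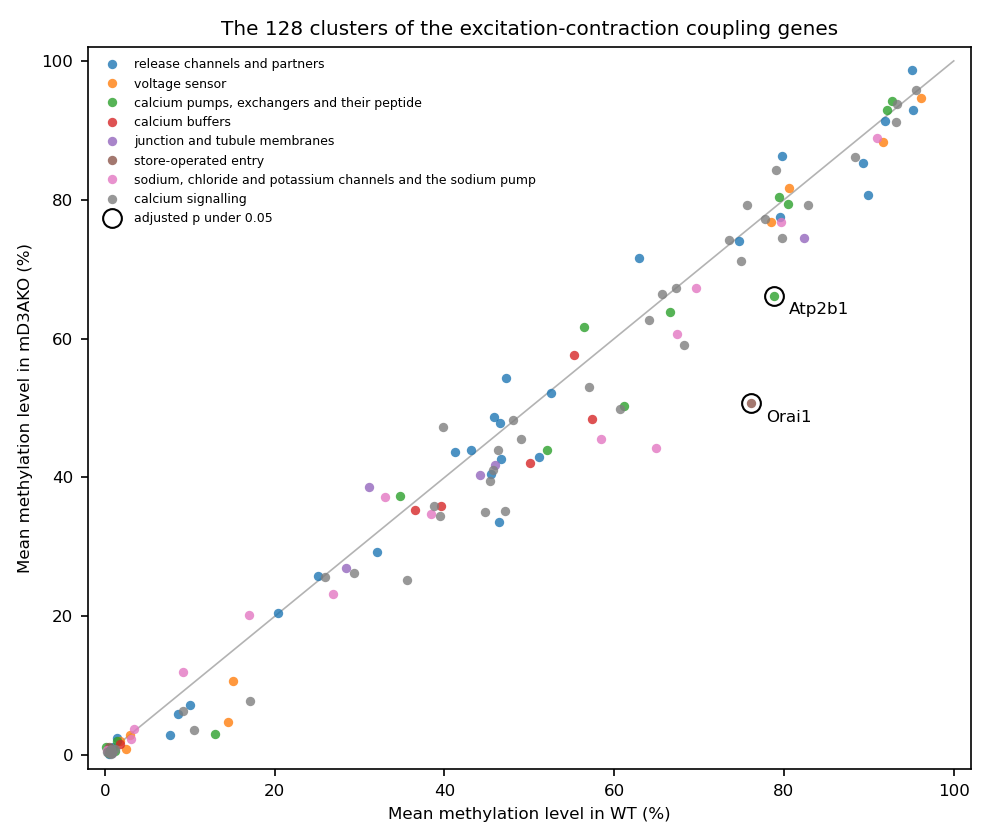
Mean methylation level (%) of each of the 128 member clusters in 21 WT mice (horizontal axis) and 23 mD3AKO mice (vertical axis), coloured by role, with the line of equal levels. The 2 circled clusters passed an adjusted p of 0.05, Orai1 at 76.2% in WT and 50.7% in mD3AKO and Atp2b1 at 78.9% and 66.2%.

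Orai1 codes for the pore of the store-operated calcium channel, which lets calcium into the fibre when the sarcoplasmic reticulum runs low and its sensor Stim1 signals it. Its cluster in exon 2 of 2, in coding sequence 14498 bp from the gene start, spans chr5:123029527-123029616 and holds 5 CpGs with 137 to 894 calls per library. In 21 WT mice it stood at 76.2% ± 10.6 (SD), and in 23 mD3AKO mice at 50.7% ± 13.4 (SD). The log2 odds ratio was -1.78 (SE 0.269), with an adjusted p of 0.000122 in edgeR, and 22 of 23 mD3AKO mice were below the WT mean. Among the 557 clusters that passed, it stood 24th by p and 44th by size of loss.

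At rest the 5 WT mice had levels at Orai1 of 67.4%, 72.5%, 79.5%, 81.8% and 83.1%, and the 5 mD3AKO mice 31.1%, 34.7%, 37.5%, 39.0% and 45.5%. At 10 min the WT mice had 54.3%, 71.0%, 84.1%, 87.6% and 92.8%, and the mD3AKO mice 44.2%, 49.7%, 64.7%, 66.4% and 69.6%. At 30 min the WT mice had 68.1%, 73.7%, 76.0%, 80.0% and 84.5%, and the 7 mD3AKO mice had a lowest, median and highest level of 31.5%, 48.4% and 77.1%. The genotypes did not overlap at rest and overlapped at 10 and 30 min, through 1 WT mouse at 10 min and 1 mD3AKO mouse at 30 min. The share of all clusters without overlap at a single time was not counted. At 60 min the lowest, median and highest levels were 51.0%, 76.0% and 87.6% in 6 WT mice and 44.9%, 53.2% and 59.1% in 6 mD3AKO mice, with 1 WT mouse inside the mD3AKO range. Over all times 13 of 23 mD3AKO mice lay below every WT mouse.

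The mD3AKO mean at Orai1 was 39.3 points below WT at rest, and 19.0, 24.0 and 21.3 points below at 10, 30 and 60 min. These differences could not be told from each other by the interaction term (a p of 0.491 in edgeR, adjusted p of 1), and the genotype contrast passed at no single time after adjustment (adjusted p = 0.188 at rest). Among females, 10 WT mice had 74.2% ± 12.7 and 11 mD3AKO mice 55.5% ± 14.7. Among males, 11 WT mice had 77.9% ± 8.58 and 12 mD3AKO mice 46.3% ± 10.8. In mice numbered 1 to 25, those of rest and 60 min, the difference was 29.4 points, and in mice numbered 26 to 50, those of 10 and 30 min, it was 22.0 points. Both sexes and both sets of mice had a lower mean in mD3AKO, and tested alone the first set passed (adjusted p = 0.0157) and the second did not (0.298).

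The 5 CpGs of the Orai1 exon had unequal differences, and whether they differ from each other was not tested. The first, at the 5′ end of the cluster, was at 80.4% ± 19.0 in WT and 72.2% ± 16.2 in mD3AKO, and did not pass the test on single CpGs (adjusted p = 0.831 in edgeR). The last, 88 bp downstream, was at 88.2% ± 13.4 in WT and 46.3% ± 22.5 in mD3AKO, a drop of 41.9 points with an adjusted p of 0.00176. The second passed as well, falling from 87.4% to 59.7% (adjusted p = 0.0279). The third, in the CCGG, was at 59.8% and 45.2%, and the fourth at 68.8% and 41.8%, both with adjusted p above the threshold (0.634 and 0.111). Of the 555 member CpGs 3 passed in all (0.541%, against 0.287% of all CpGs), these 2 and 1 in Atp2b1. With an unadjusted p 41 differed, or 7.39% against 6.38% of all CpGs.

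**Figure D2:**
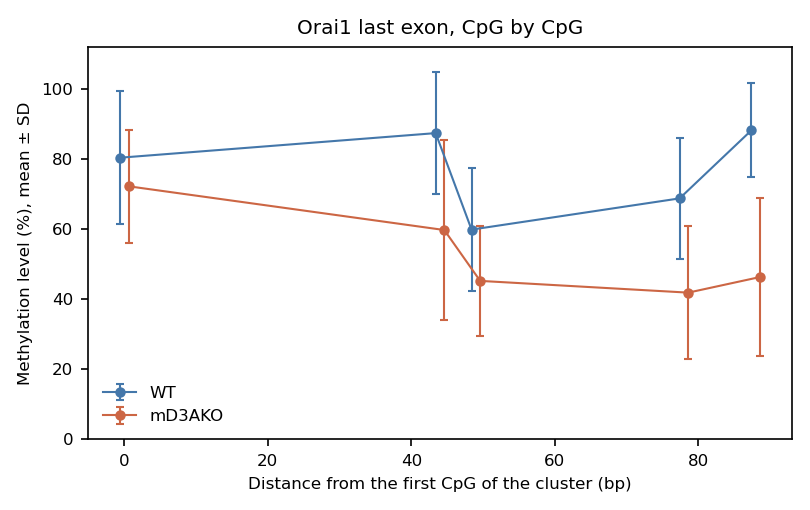
Methylation level (%, mean ± SD) at each of the 5 covered CpGs of the Orai1 last exon in 21 WT and 23 mD3AKO mice, by distance in bp from the first CpG. The means lay 8.16 points apart at the first CpG and 41.9 points apart at the last.

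The start of Orai1 was nearly unmethylated in both genotypes. Its promoter cluster in exon 1 (chr5:123015421-123015493, 7 CpGs, 383 bp from the start) had 0.502% ± 0.91 in WT and 1.11% ± 1.87 in mD3AKO, with an adjusted p of 0.82, and 9 WT and 8 mD3AKO mice at 0. Over the whole Orai1 gene body, 12 CpGs, the level was 28.2% ± 10.7 in WT and 19.2% ± 7.46 in mD3AKO (adjusted p = 0.14 in edgeR). Of these 12 CpGs, 7 are those of the promoter cluster, so the sum joins nearly unmethylated CpGs with those of the last exon. Stim1, its partner in the reticulum membrane, had 0 CpGs in the table.

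The calcium pumps and exchangers had 16 clusters in 4 of 7 genes, of which 1 passed, in Atp2b1, and 4 had an unadjusted p under 0.05. The shares over all clusters, here and for each role below, are 1.09% and 9.56%. Atp2b1 codes for the calcium pump of the surface membrane, PMCA1, which expels calcium from the cell. Its 5 clusters held 37 CpGs, and 4 of the 5 were lower in mD3AKO. The cluster that passed, chr10:98967528-98967589, lies in intron 1 at 53152 bp from the start and has 3 CpGs with 75 to 517 calls per library. Its level was 78.9% ± 11.1 in WT and 66.2% ± 11.5 in mD3AKO (log2 odds ratio -1.10, SE 0.292, adjusted p = 0.0459 in edgeR), with 20 of 23 mD3AKO mice below the WT mean. It stood 532nd of 557 by p, and leaving out any of 31 of the 44 mice raised its adjusted p above 0.05 (up to 0.0897). This cluster did not pass with a coverage minimum of 20 (adjusted p = 0.492).

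At rest the WT mice had levels of 75.4%, 79.0%, 79.3%, 88.3% and 91.1% at this Atp2b1 cluster and the mD3AKO mice 45.5%, 50.3%, 70.2%, 76.0% and 85.2%. At 10 min they were 71.7%, 74.7%, 89.6%, 93.6% and 95.8% against 45.1%, 58.7%, 59.6%, 68.8% and 74.9%. At 30 min the WT mice had 48.3%, 71.1%, 79.1%, 86.4% and 88.7%, and the mD3AKO mice ranged from 53.7% to 85.9% with a median of 71.5%. The genotypes overlapped at each of these times, and at 30 min the lowest mouse of all was WT. At 60 min the WT mice ranged from 63.3% to 81.8% (median 73.8%) and the mD3AKO mice from 56.6% to 72.3% (median 64.9%), again with overlap.

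The second intronic cluster of Atp2b1, chr10:98959505-98959568, lies 45130 bp from the start, holds 2 CpGs and fell just outside the threshold (adjusted p = 0.0538, log2 odds ratio -2.59, SE 0.716). It was lightly methylated, at 13.0% ± 9.23 in WT and 3.11% ± 4.01 in mD3AKO. In WT the levels at rest were 2.93%, 3.82%, 13.6%, 25.6% and 30.8%, and at 60 min they ranged from 1.92% to 26.8% with a median of 10.6%. In mD3AKO they were 0%, 0%, 1.39%, 5.05% and 7.63% at rest, and ranged from 0% to 6.73% at 60 min with a median of 2.94%. At 10 min the WT mice had 0%, 3.18%, 10.7%, 17.7% and 23.9% and the mD3AKO mice 0%, 0%, 0%, 6.87% and 16.4%. The genotypes overlapped at rest, 10 and 60 min but not at 30 min, when the WT mice had 7.69%, 8.76%, 11.8%, 17.3% and 21.7% and the 7 mD3AKO mice 0% to 5.17%. How many of all clusters are apart at that time was not counted. In all 9 mD3AKO mice and 1 WT mouse were at 0, with 52 or more calls in every library, and 22 of 23 mD3AKO mice lay below the WT mean. Its second CpG passed the single-CpG test (15.7% ± 12.7 in WT, 2.89% ± 5.90 in mD3AKO, adjusted p = 0.0246 in edgeR). This cluster passed with limma (adjusted p = 0.00543), with a coverage minimum of 20 (0.012) and with sex in the model (0.031).

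The other Atp2b1 clusters did not pass. Another intronic cluster 46918 bp from the start had 52.1% ± 14.0 in WT and 43.9% ± 16.1 in mD3AKO (adjusted p = 0.542), and the promoter cluster of 29 CpGs had 0.49% and 0.383% (adjusted p = 0.998). The sister pump Atp2b2 had 7 clusters, with levels in WT from 1.23% to 80.5%. The lowest p among them was at 3 CpGs in an intron and UTR at 61.2% ± 11.0 in WT and 50.3% ± 17.0 in mD3AKO (unadjusted p of 0.0406, adjusted p = 0.487 in edgeR). Slc8a3, a sodium-calcium exchanger, had 3 clusters, all with a higher mean in mD3AKO, and 4 CpGs in its UTR stood at 0.0701% ± 0.19 in WT and 1.15% ± 3.41 in mD3AKO (adjusted p = 0.309). In mD3AKO 16 of 23 mice were at 0 there and 1 mouse at 60 min had 15.8%, without which the mean was 0.479% ± 1.21 (adjusted p = 0.421 in edgeR).

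Of the reticulum pumps, Atp2a2, the SERCA pump of slow fibres and heart, had 1 cluster of 22 CpGs across its start, at 0.534% ± 0.698 in WT and 0.388% ± 0.458 in mD3AKO (adjusted p = 0.966). Atp2a1, the SERCA pump of fast fibres, and Sln, which codes for the peptide sarcolipin that restrains these pumps, had 0 CpGs in the table. The exchanger Slc8a1 had 0 CpGs assigned to it. A cluster of 8 CpGs inside its annotated span that the table assigned to no gene had 0.59% ± 1.32 in WT and 0.572% ± 0.992 in mD3AKO.

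**Figure D3:**
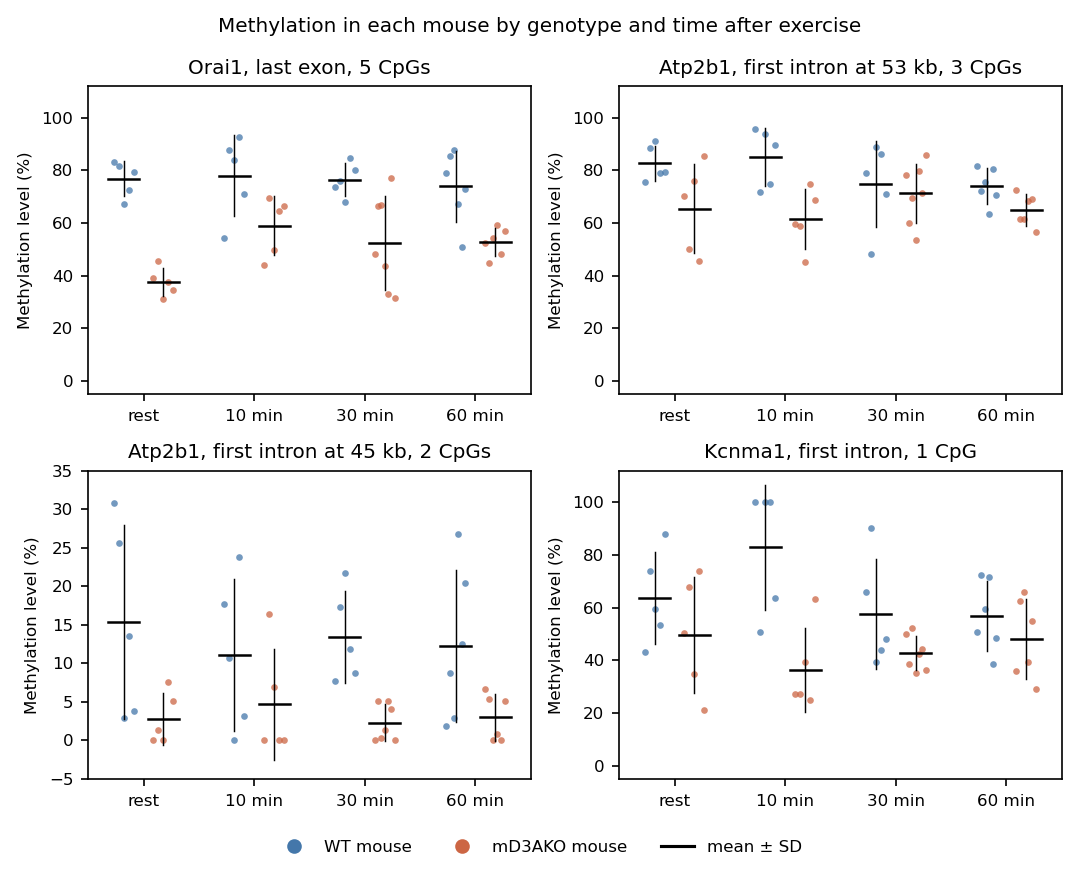
Methylation level (%) in each mouse at the 4 member clusters of lowest p, by time, WT in blue and mD3AKO in red, with mean ± SD as black bars. The genotypes are apart at rest at Orai1 and at 30 min at the Atp2b1 cluster at 45 kb, where the 7 mD3AKO mice reach 5.17%, and overlap in the other panels and times. How many of all clusters are apart at a single time was not counted.

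The sodium, chloride and potassium channels and the sodium pump had 16 clusters in 6 of 7 genes, of which 0 passed in edgeR and 2 had an unadjusted p under 0.05. Kcnma1, the large-conductance potassium channel opened by calcium and voltage, held 9 of them, 7 lower in mD3AKO. A single CpG in intron 1 (chr14:23835950-23835951, 178540 bp from the start, 22 to 192 calls) had 64.9% ± 20.5 in WT and 44.3% ± 15.0 in mD3AKO. With a log2 odds ratio of -1.80 (SE 0.495), its adjusted p of 0.0566 lay just outside the threshold, with 20 of 23 mD3AKO mice below the WT mean. It passed with limma (adjusted p = 0.015). The mD3AKO mean was 11.2 points lower over the mice of rest and 60 min (numbers 1 to 25) and 30.1 points lower over those of 10 and 30 min (numbers 26 to 50).

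At this Kcnma1 CpG the WT mice at 10 min had levels of 50.8%, 63.6%, 100%, 100% and 100%, against 25.0%, 27.1%, 27.2%, 39.4% and 63.3% in mD3AKO. At rest the levels were 43.2%, 53.5%, 59.6%, 74.1% and 87.8% in WT and 21.4%, 35.0%, 50.4%, 67.9% and 74.1% in mD3AKO. At 30 min the WT mice had 39.4%, 44.0%, 48.1%, 66.0% and 90.4% and the mD3AKO mice ranged from 35.4% to 52.3% (median 42.3%). The genotypes overlapped at these times, and at 60 min as well, with 38.8% to 72.3% in WT (median 55.1%) and 29.2% to 66.0% in mD3AKO (median 47.1%). The mD3AKO mean was 46.5 points lower at 10 min and 13.9, 14.8 and 8.92 points lower at rest, 30 and 60 min. The interaction had a p of 0.0324 (adjusted p of 1 in edgeR). A second Kcnma1 CpG, in a coding exon, had 58.4% ± 12.8 in WT and 45.5% ± 11.2 in mD3AKO (adjusted p = 0.161).

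The other channel genes had 7 clusters in all. Kcnq5, a potassium channel of the M-current family, had a start cluster at 0.624% and an intronic cluster at 79.7% in WT. Kcnj2 and Kcnj11, inward rectifier channels, had start clusters at 0.29% and 3.10%, and Atp1b1, a subunit of the sodium pump, at 3.37%. Scn4a, the sodium channel that carries the muscle action potential, had 2 clusters, at 26.8% and 9.25% in WT and 23.2% and 12.0% in mD3AKO. None of these passed, with adjusted p from 0.773 to 0.999 in edgeR. Clcn1, the muscle chloride channel, had 0 CpGs in the table.

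The voltage sensor genes had 9 clusters in 5 of 6 genes, of which 0 passed in edgeR and 3 had an unadjusted p under 0.05. Cacnb1 codes for the cytosolic beta subunit that holds the sensor to the tubule, and its 3 clusters all had lower means in mD3AKO. The start cluster of 12 CpGs had 2.49% ± 2.33 in WT and 0.893% ± 1.46 in mD3AKO (unadjusted p of 0.00689, adjusted p = 0.224 in edgeR). The groups overlapped, from 0% to 7.71% in WT with a median of 1.69% and from 0% to 5.32% in mD3AKO with a median of 0.261%. An intronic CpG had 14.5% ± 14.7 and 4.83% ± 7.49 (adjusted p = 0.351).

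Cacna1s, the pore and sensor itself, had 1 CpG, at 78.4% ± 18.8 in WT and 76.8% ± 15.0 in mD3AKO, and 6 further CpGs in its span were assigned to Ascl5. Cacna2d1, the alpha2-delta subunit, had 3 clusters at 2.89%, 91.6% and 80.5% in WT, and Cacng6, a gamma subunit, had 1 at 1.81%. Cacng1, the muscle gamma subunit, had 1 CpG upstream of its start at 96.2% ± 8.76 in WT and 94.7% ± 8.38 in mD3AKO, with 16 WT and 10 mD3AKO mice at 100%. Stac3, which couples the sensor to the release channel, had 0 CpGs in the table.

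The release channels and their partners had 30 clusters in all 7 genes, with levels in WT from 0.359% to 95.1%. Of these 16 were lower in mD3AKO, 0 passed in edgeR and 3 had an unadjusted p under 0.05. Ryr1, the release channel of skeletal muscle, had 8 clusters. Its start cluster of 6 CpGs was at 0.995% ± 1.32 in WT and 1.11% ± 1.06 in mD3AKO, and a coding cluster 105374 bp away at 10.0% and 7.17%. The other 6 Ryr1 clusters had 43.1% to 79.5% in WT and 33.6% to 77.5% in mD3AKO, with adjusted p from 0.737 to 1.

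Ryr3, the minor ryanodine receptor of muscle, had 6 clusters. Its start cluster was higher in mD3AKO, 1.42% ± 1.58 in WT against 2.54% ± 2.00, with an unadjusted p of 0.0288 and an adjusted p of 0.429 in edgeR. The other 5 Ryr3 clusters lay in introns or exons at 20.4% to 89.3% in WT, and differed by -4.08 to 2.81 points.

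Itpr1, the inositol trisphosphate receptor, had 10 clusters. One intronic CpG (chr6:108306485-108306486, 120 to 660 calls) had 7.72% ± 6.38 in WT and 2.97% ± 3.94 in mD3AKO, with an unadjusted p of 0.0218 and an adjusted p of 0.386 in edgeR. It was at 0 in 11 mD3AKO and 3 WT mice. Asph, whose products include junctin, had 3 clusters, among them an intronic CpG at 95.0% in WT and 98.7% in mD3AKO (adjusted p = 0.4). Fkbp1a, the immunophilin that binds the ryanodine receptor, had 1 cluster at 0.731% in WT, Jsrp1, a junctional protein, 1 at 32.0%, and Trdn, coding for triadin, 1 at 79.8%.

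The genes that shape the junction had 7 clusters in 3 of 4 genes, of which 0 passed in edgeR and 1 had an unadjusted p under 0.05. Bin1, which bends the tubule membrane, had an intronic cluster of 3 CpGs at 82.4% ± 9.69 in WT and 74.5% ± 10.4 in mD3AKO (unadjusted p of 0.0273, adjusted p = 0.421 in edgeR). The WT mice ranged from 56.6% to 97.3% with a median of 84.2%, and the mD3AKO mice from 49.2% to 98.4% with a median of 77.0%, so the groups overlapped, and both the lowest and the highest mouse were mD3AKO. Jph1 and Jph2 code for junctophilins, which tie tubule to reticulum. Jph1 had a start cluster at 0.613% and an intronic CpG at 44.2% in WT, and Jph2 a coding cluster at 28.4% and an intronic one at 31.1%. Mtm1 lies on the X chromosome, which the table leaves out.

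The calcium buffers had 7 clusters in 4 of 5 genes, of which 0 passed in edgeR and 1 had an unadjusted p under 0.05. Pvalb codes for parvalbumin, the cytosolic buffer of fast fibres. Its cluster of 2 CpGs in exon 2 was at 57.4% ± 9.99 in WT and 48.4% ± 11.0 in mD3AKO (unadjusted p of 0.0244, adjusted p = 0.403 in edgeR), ranging from 38.3% to 74.2% in WT and from 21.1% to 63.6% in mD3AKO. Casq2, the calsequestrin of heart and slow fibres, had an upstream cluster of 5 CpGs at 1.75% ± 2.08 in WT and 1.58% ± 2.55 in mD3AKO. Its 2 intronic clusters had 50.0% and 55.2% in WT and 42.0% and 57.7% in mD3AKO, with SDs of 17.8 to 25.1 points and adjusted p of 0.899 and 0.998. Casq1, the calsequestrin of fast fibres, had 0 CpGs in the table. Hrc, a calcium-binding protein of the reticulum, had 1 CpG at 36.5%, and Srl, coding for sarcalumenin, 1 at 39.6% in WT.

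The calcium signalling genes held the most clusters, 41 in 7 genes, of which 29 were lower in mD3AKO, 0 passed in edgeR and 3 had an unadjusted p under 0.05. Camk2a codes for the alpha CaM kinase II, and all 5 of its clusters had lower means in mD3AKO. The lowest p was at 3 CpGs just upstream of its start, at 47.1% ± 15.2 in WT and 35.1% ± 12.4 in mD3AKO (log2 odds ratio -0.85, SE 0.269, adjusted p = 0.138 in edgeR). The mean level of this start was not low in either genotype, unlike most member starts. Camk2b had 9 clusters from 0.3% to 82.9% in WT and Camk2g 3 from 0.606% to 95.5%.

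Nfatc1 and Nfatc2 code for the transcription factors that calcineurin sends to the nucleus. Nfatc2 had 12 clusters, 10 lower in mD3AKO, among them 2 intronic CpGs at 10.5% ± 10.1 in WT and 3.64% ± 5.61 in mD3AKO (adjusted p = 0.311). Nfatc1 had 5 clusters with 57 CpGs, 3 of them islands at the gene's 5′ end at 0.776% or less in WT. Ppp3ca, a catalytic subunit of calcineurin, had 6 clusters with 43 CpGs, from 0.657% at the start to 93.3% in an intron, and Ppp3cb 1 at 0.703% in WT. No cluster of these genes passed, with adjusted p from 0.311 to 1.

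**Figure D4:**
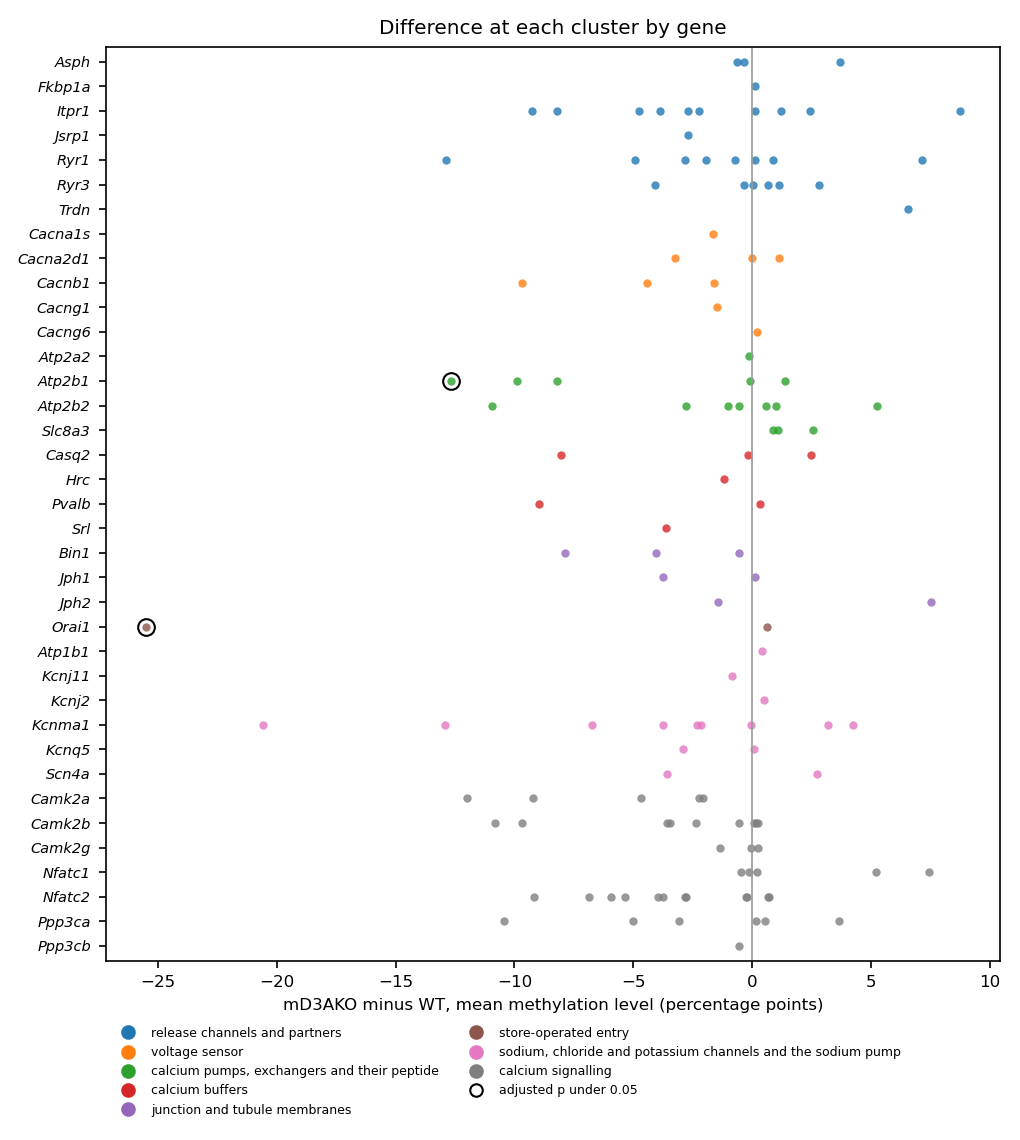
Difference in mean methylation level (mD3AKO minus WT, percentage points) at each cluster of the 37 genes with CpGs, by gene and role. The 2 circled clusters passed an adjusted p of 0.05, and the largest gain, 8.73 points at Itpr1, did not.

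With calls summed over whole promoters (3000 bp before to 1000 bp after a start), 28 members were measured and 0 passed, against 0.789% of all promoters. Of these 28 promoters 25 were under 10% in WT, and 14 were lower in mD3AKO (50%, against 58.1% of all promoters). The lowest p was at Cacnb1 (adjusted p = 0.292 in edgeR), and 5 had an unadjusted p under 0.05, against 8.13% of all promoters. With calls summed over gene bodies, 34 members were measured and 0 passed, against 1.42% of all gene bodies, while 28 of 34 had a lower mean in mD3AKO (82.4%, against 63.9% of all gene bodies) and 3 had an unadjusted p under 0.05 (8.82%, against 9.77% of all gene bodies). Neither Orai1 nor Atp2b1 passed when the whole gene body was summed. Those sums include CpGs of the nearly unmethylated promoter clusters, 7 of 12 at Orai1 and 25 of 33 at Atp2b1. Sums weight each CpG by its calls. With CpGs weighted equally, the gene body difference changed sign at Jph2 (-0.92 to 1.25 points) and Nfatc1 (-0.09 to 0.17) and at no other member. The promoter difference changed sign at Ryr1 (0.11 to -0.04 points), Cacna2d1 (0.005 to -0.16) and Nfatc1 (0.009 to -0.05).

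Other genes of the pathway, 97 chosen for their roles in coupling, calcium handling and excitability, were tested in the same fit, and 84 of them held 292 clusters. Of these 1 passed, or 0.342% against 1.09% of all clusters. It lies in an intron of Kcnq1, a voltage-gated potassium channel, at 47.3% ± 23.0 in WT and 22.6% ± 8.30 in mD3AKO (adjusted p = 0.00563 in edgeR). All 23 mD3AKO mice lay below its WT mean. With an unadjusted p 42 clusters differed (14.4%, against 9.56% of all clusters), and 212 of 292 had a lower mean in mD3AKO (72.6%, against 62.4% of all clusters).

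The second comparison asked whether methylation moved in the hour after exercise. No member cluster passed for time over both genotypes, nor did any of the 51038 clusters in edgeR (0%). With an unadjusted p 4 member clusters differed, or 3.12% against 2.86% of all clusters. Within WT alone 3 members had an unadjusted p under 0.05 for time (3.22% of all clusters) and within mD3AKO 5 (2.13%). The likelihood ratio test called 10 clusters of the table (0.0196%) and 0 members, and limma 0. Among promoters 1 of 28 members had an unadjusted p under 0.05 for time (3.65% of all promoters), and among gene bodies 2 of 34 (3.97%).

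The lowest p for time was at the upstream cluster of Camk2a (a p of 0.0122, adjusted p of 1 in edgeR). In WT its mean was 40.7% ± 4.88 (SD, n = 5) at rest, 61.4% ± 26.0 (SD, n = 5) at 10 min, 42.9% ± 5.45 (SD, n = 5) at 30 min and 44.1% ± 8.34 (SD, n = 6) at 60 min. In mD3AKO it was 28.0% ± 8.66 (SD, n = 5), 43.9% ± 8.52 (SD, n = 5), 41.0% ± 11.1 (SD, n = 7) and 26.9% ± 12.3 (SD, n = 6). In WT the mice at 10 min ran from 20.0% to 86.5% and took in the whole range at rest, while in mD3AKO all 5 mice at 10 min lay above all 5 at rest. How often this holds among all clusters was not counted. The mD3AKO means at 10 and 30 min, both from mice numbered 26 to 50, were the higher ones, so time and number set cannot be told apart here. The next was the promoter of Atp2b1 (a p of 0.0249 in edgeR, adjusted p of 1), where the WT mean was 0.97% at rest and 0.163%, 0.25% and 0.56% at 10, 30 and 60 min, and no mouse of either genotype exceeded 2.17%.

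The third comparison asked whether exercise acted differently in the 2 genotypes. No member cluster passed for the interaction, nor did any cluster of the table in edgeR (0%), and 5 members had an unadjusted p under 0.05, or 3.91% against 2.74% of all clusters. The likelihood ratio test called 7 clusters of the table (0.0137%) and limma 1 (0.00196%), with 0 members in both. Among promoters 3 of 28 members had an unadjusted p under 0.05 for the interaction (3.02% of all promoters), and among gene bodies 0 of 34 (3.36%). The lowest p was at the single CpG upstream of Cacng1 (a p of 0.023 in edgeR, adjusted p of 1). There the WT mean was 100% at rest and 85.4% ± 13.5 (SD, n = 5) at 10 min, with 3 mice between 73.5% and 78.3%, and the mD3AKO means were 94.6% and 97.3%. This CpG had as few as 12 calls in a library. The Kcnma1 CpG described above had the next lowest p.

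**Figure D5:**
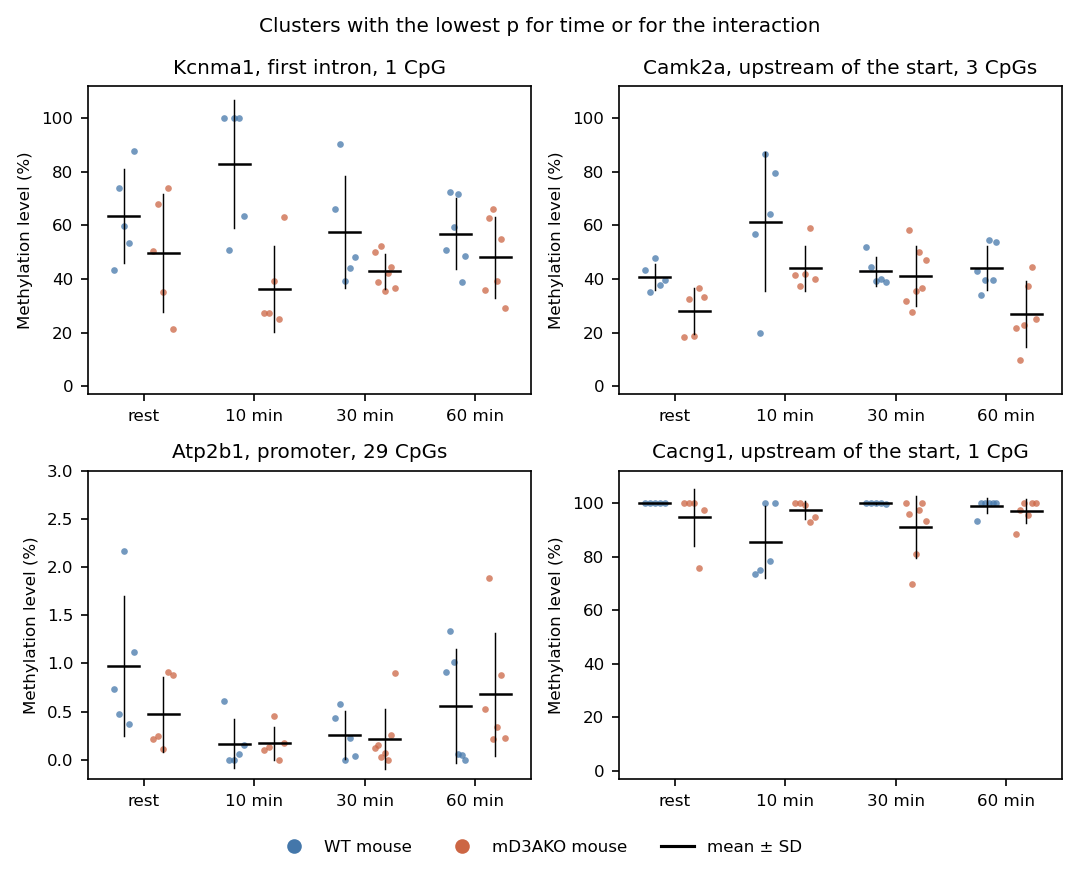
Methylation level (%) in each mouse at the member clusters with the lowest p for time (Camk2a, Atp2b1) and for the interaction (Kcnma1, Cacng1), by time, WT in blue and mD3AKO in red, with mean ± SD as black bars. None passed after adjustment, and the WT mice at 10 min spread from 20.0% to 86.5% at Camk2a.

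Genotype contrasts at single times gave 0 member calls. Of all clusters 3, 7, 9 and 4 passed at rest and at 10, 30 and 60 min (0.00588%, 0.0137%, 0.0176% and 0.00784%). With an unadjusted p 9, 8, 13 and 6 of the 128 member clusters differed, or 7.03%, 6.25%, 10.2% and 4.69%, against 4.69%, 5.12%, 5.14% and 5.23% of all clusters. The mean was lower in mD3AKO at all 4 times in 16 member clusters and at 0 of the 4 times in 6. The same counts over all clusters were not made. The median difference over the members was -0.50, -0.58, -1.66 and -0.05 points at rest, 10, 30 and 60 min, against -0.24, -0.27, -0.70 and -0.54 points for all clusters.

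The depth behind these values differed widely between members. The least covered library had 8 to 1206 calls per member cluster, with a median of 54, and fewer than 20 in 27 of the 128 clusters. Of the member clusters 42 were single CpGs.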

How the data were processed

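RRBS cuts genomic DNA at CCGG, converts unmethylated cytosines and reads what remains. Per the labels the authors trimmed reads with Trim Galore 0.4.0 and cutadapt 1.9.1 and called methylation with Bismark 0.18.1 on mm10. The deposited counts are methylated and unmethylated calls per CpG, strands added, with 8 or more calls in every sample and X, Y and M left out. Of the 50 samples of the series 44 were used, and 6 were not analysed here, 1 of them with labels that disagree on genotype. Per-sample columns of no sample numbered 0.

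Counts were summed per cluster, promoter and gene body and tested in edgeR 4.0.16 (R 4.3.3) with a term per sample and the mean of each of 8 groups, common dispersion, all samples in 1 fit. limma 3.58.1 used log2((methylated + 1)/(unmethylated + 1)). The code was tested on simulated data. Genes and exons are from GENCODE vM21. Named are clusters with an adjusted p under 0.05, in each role the cluster of lowest genotype p among the rest, the 2 of lowest p for time and for the interaction, and all clusters of isoform pairs; further clusters were named after their values were seen. The members and lists were chosen with earlier results of these data known. Each mouse gave 1 library, so p-values measure the spread between mice, and calls are PCR reads without molecular identifiers.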

Additional observations from a re-analysis of the deposited data

Results flagged for a closer look

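In the named clusters 96 groups of mice were checked for a single mouse far from its group (Dixon's test, of which chance flags about 1 in 20), and 13 values from 12 mice stood apart, WT mouse 4 at both Bin1 and Cacng1. Where all other mice of a group were tied at 0% or 100%, any departure is flagged, so that chance rate does not hold there. At the Cacnb1 start 1 mD3AKO mouse at 10 min had 5.32%, next to 0.598%, and 1 at 60 min had 0.975%. In the Bin1 intron 1 WT mouse at 60 min had 61.9%, with the next at 83.9%. At the Orai1 promoter 1 mD3AKO mouse at 60 min had 7.78%, WT mice at 30 and 60 min had 0.267% and 1.57%, and a WT mouse at rest had 0%. Upstream of Camk2a 1 mD3AKO mouse at 10 min had 58.8%, with the next at 41.9%. At the Atp2b1 promoter 1 mD3AKO mouse at 30 min had 0.896% and 1 WT mouse at 10 min 0.604%. At the CpG upstream of Cacng1 1 mD3AKO mouse at rest had 75.6%, with the next at 97.5%, and WT mice at 30 and 60 min had 99.5% and 93.2% in groups otherwise at 100%. Of the 13, 8 lay in clusters with levels under 10%. None lay in the Orai1 exon, both intronic Atp2b1 clusters or the Kcnma1 CpG.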

How the results depend on the processing

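Of the member clusters, 2 passed for genotype (557 in the table). The number was 6 with the likelihood ratio test (1414), 4 with limma (895) and 4 without near-constant clusters (658 of 43345). It was 1 in mice numbered 1 to 25 (25 in the table), 0 in mice numbered 26 to 50 (33) and 0 at rest alone (3), settings with fewer mice (the sets also split the times). It was 3 with a coverage minimum of 20 (431 of 28165 in the table) and with sex in the model (569). It was also 3 without the 3 libraries of lowest correlation (571), an alternative chosen after seeing the data. With gaps of 50 or 200 bp it was 2. Leaving out 1 mouse at a time, with members and every 10th cluster tested and p adjusted over those alone, gave 1 to 4. It gave 1 for 21 mice and 4 without WT mouse 35. The Orai1 exon passed in all 44 of these fits (adjusted p up to 0.000205), and not in mice 26 to 50 (0.298) or at rest alone (0.188). The Atp2b1 cluster, which passed with all mice, did so with 1 left out only without mouse 1, 3, 12, 18, 24, 27, 32, 35, 39, 41, 45, 47 or 48, and not with a coverage minimum of 20 (0.492). Among gene bodies 1 passed with the likelihood ratio test (Cacnb1), and 0 to 1 with 1 mouse left out (Cacnb1 without mouse 20, Orai1 without mouse 22 or 49). The shares of all gene bodies that passed in these runs are not given. Among single CpGs 6 of 555 passed with limma, for which no share of all CpGs is given. In the pathway list 6 of 292 clusters passed with the likelihood ratio test (2.77% of all clusters) and 3 with limma (1.75%). At low levels the log2 odds ratio reversed with a coverage minimum of 20 at the Orai1 promoter (-0.74) and the Atp2b1 promoter (0.30), and at the latter without WT mouse 30 (0.074), against a lowest value of -0.30 with another mouse left out. The cause was not tested. Time, interaction and promoters gave 0 members in each alternative run. No paired analysis was possible because each number names 1 mouse and no number is shared between groups.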
